A study of Mus musculus with 16 samples.

Results

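The genes of cholesterol synthesis and sterol regulation were followed in the liver and white fat of mice whose fathers had been obese or were controls. They were chosen by symbol, with earlier results of these data known, as 31 genes ordered by pathway step. Of these, 27 matched 1 probe set each among 19505 genes with a symbol. Acat2, Tm7sf2, Soat1 and Soat2 had no match and were not analysed here. The 27 genes comprise 18 of the 20 named enzymes from acetyl units to cholesterol, 4 genes of SREBP control, Mylip, 3 genes of intracellular sterol transport and the sterol exporter Abcg1. All 27 lay above the limit for dim genes in each of the comparisons reported here; with a stricter limit, at the 50th percentile, Fdps was left out in eWAT.

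Expression was measured on Affymetrix whole-transcript arrays in C57BL/6J male mice aged 14 weeks. The fathers of the F1 mice had eaten a high-fat diet with 45% lipids for 12 weeks from 8 weeks of age, and those of the CT mice had eaten chow; the mothers of both groups were controls. No allele or transgene is named, and the labels distinguish the groups by the diet of the father. The CT and F1 mice gave 4 arrays each for liver and 4 each for eWAT, as the labels call the fat depot, in 4 groups of biological replicates. Neither the father or litter of each mouse nor whether liver and eWAT came from the same animals is given. A p-value here thus rests on the scatter among these arrays, and the mice of a group could share a father.

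Cholesterol is built from acetyl units through mevalonate, isoprenoid diphosphates, squalene and lanosterol, and the liver is a major site of its synthesis. The transcription factor SREBP2, encoded by Srebf2, is escorted by Scap from the endoplasmic reticulum to the Golgi when membrane sterol is low, is cut there, and then switches on the enzymes of the pathway and Insig1. The Insig proteins hold Scap in the endoplasmic reticulum when sterol is plentiful. Sterol beyond need is moved between membranes, stored as ester, or exported.

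Values below are deposited log2 signals, on which a difference of 1 is a doubling of signal. Between liver libraries the medians lay between 5.21 and 5.24 and the correlations over genes between 0.985 and 0.991; in eWAT the medians ran from 6.34 to 6.56 and the correlations from 0.976 to 0.991. The median of 10 hepatocyte markers was 19.87 to 19.92 in liver, and that of 9 adipocyte markers was 17.41 to 17.87 in eWAT. Several libraries stood apart in other tissues' genes. The median of 9 exocrine pancreas markers was 12.98 in the liver library F1 4 and 4.16 to 5.43 in the other livers, and that of 10 skeletal muscle markers was 4.70 and 4.62 in the livers F1 1 and F1 2 against 3.70 to 3.90. These muscle levels were near the floor, the 25th percentile of the liver libraries being 3.88 to 3.92. Ckm, the brightest muscle marker in liver, was not raised, at 5.80 and 5.82 in F1 1 and F1 2 against 5.36 to 6.22. The liver CT 2 was high in some macrophage genes, with Marco at 10.76 against 5.23 to 6.41 in the other livers and Adgre1 at 10.94 against 8.31 to 9.68. Other macrophage genes went the other way there, with Clec4f at 9.40 and Cd163 at 8.00, each the lowest of all livers. The eWAT library F1 1 held genes of the seminal vesicle, with Svs4 at 14.01 against 3.36 to 4.55 in the other eWAT libraries and Svs5 at 14.51 against 2.31 to 3.22. In eWAT the hepatocyte markers had medians of 8.70, 7.41, 14.30 and 14.26 in CT and 11.93, 14.26, 11.56 and 15.76 in F1.

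In the liver, most of the synthesis enzymes had a higher mean in the offspring of obese fathers, but none of the 27 genes passed limma's adjusted threshold of 0.05. A higher mean was found for 15 of the 18 enzymes, against 49.6% of all 14760 genes tested, and the median difference over the enzymes was 0.37 against 0.00 over all genes. Across the whole array 0.156% of genes passed. At an unadjusted p under 0.05 limma counted 13 of the 27 genes, 11 higher and 2 lower, where 9.13% of all genes fell under it, 4.46% higher and 4.66% lower. In 6 enzymes every F1 library exceeded every CT library, and Insig2 and Npc2 showed the reverse; 2.68% of all genes had groups that did not overlap in each direction. The count at adjusted p under 0.05 was 0 under each of the other settings tried as well. Since the genes were chosen with earlier results of these data known, the shares of all genes set beside them are a description and not a test. In bulk tissue, fewer cells of a type and less RNA per cell cannot be told apart.

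**Figure D1:**
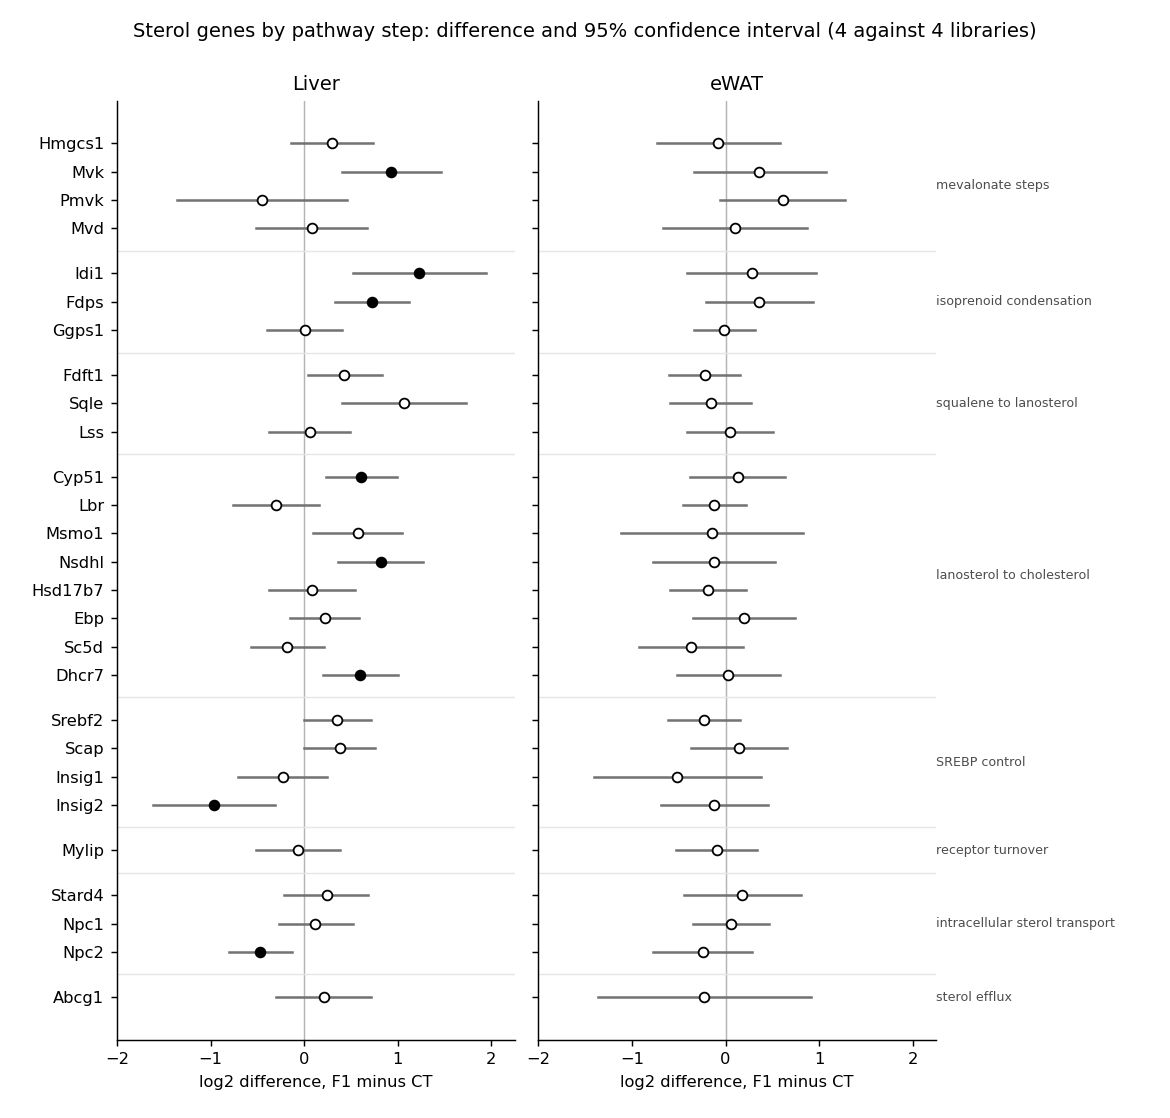
Log2 difference F1 minus CT with its 95% confidence interval from limma for the 27 genes, ordered by pathway step, in liver and in eWAT; filled points mark genes whose 4 F1 and 4 CT libraries do not overlap. Most enzymes lie to the right of 0 in liver, led by Idi1 at 1.23, and on both sides of 0 in eWAT, where no point is filled.

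The early mevalonate steps were uneven in liver. Mvk, the kinase that phosphorylates mevalonate, read 7.32, 6.76, 6.62 and 6.14 in the CT livers and 7.42, 7.83, 7.77 and 7.54 in the F1 livers. The lowest F1 library lay just above the highest CT library, CT 1, and the other CT livers were lower still. Its difference was 0.93 ± 0.24 (SE), a 1.91-fold mean (limma adjusted p = 0.241). Hmgcs1, the synthase that makes hydroxymethylglutaryl-CoA, differed by 0.30 ± 0.20 with overlapping groups (adjusted p = 0.703), and Mvd, the mevalonate diphosphate decarboxylase, by 0.08 ± 0.27 (adjusted p = 0.96). Pmvk, the second kinase, ran the other way at -0.45 ± 0.41 (adjusted p = 0.8): its F1 livers split into 9.28 and 9.01 against 7.50 and 7.67, with the CT livers between 8.46 and 9.34.

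Isoprenoid condensation held the enzyme with the largest difference and the one with the smallest p. Idi1, the isomerase that interconverts the isoprenoid building blocks, read 12.83, 12.24, 12.89 and 11.54 in the CT livers and 14.21, 13.54, 13.38 and 13.28 in the F1 livers. All F1 livers lay above 13 and all CT livers below it, and CT 4 was the lowest of the 8. The difference of 1.23 ± 0.32, or 2.34-fold, was the largest among the 27 genes (limma adjusted p = 0.252). Fdps, which joins the building blocks into farnesyl diphosphate, had the smallest p of the 27. Its values were 11.18, 10.84, 10.96 and 11.11 in the CT livers and 11.82, 11.33, 12.00 and 11.85 in the F1 livers. The groups did not overlap, the closest libraries being F1 2 and CT 1, and the difference was 0.73 ± 0.18 (adjusted p = 0.218, unadjusted p = 0.00221). Ggps1, which makes the longer geranylgeranyl diphosphate used to anchor proteins to membranes rather than for sterol, differed by 0.01 ± 0.18 (adjusted p = 0.997).

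From squalene to lanosterol the F1 livers were higher in Sqle and Fdft1, with overlap. Sqle, the epoxidase that oxygenates squalene, read 10.29, 9.56, 9.94 and 9.91 in the CT livers and 10.87, 10.25, 11.79 and 11.06 in the F1 livers. The library F1 3 was far above the rest, while F1 2 sat just below CT 1. The difference was 1.07 ± 0.30, or 2.1-fold (adjusted p = 0.291); without F1 3 it was 0.80 and without F1 2 it was 1.32. Fdft1, squalene synthase, read 14.02, 13.92, 13.75 and 13.56 in the CT livers and 14.58, 14.00, 14.31 and 14.09 in the F1 livers, a difference of 0.43 ± 0.18 (adjusted p = 0.507). F1 1 was the highest and F1 2 fell among the CT values. Lss, which closes the rings to form lanosterol, differed by 0.06 ± 0.19 (adjusted p = 0.957).

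Among the 8 enzymes measured between lanosterol and cholesterol, 6 had a higher mean in F1 livers and 3 did so without overlap. Cyp51, the lanosterol demethylase, read 15.25, 15.09, 14.88 and 14.60 in the CT livers and 15.63, 15.42, 15.55 and 15.67 in the F1 livers. Each F1 liver was higher than any CT liver; the difference was 0.61 ± 0.17 (limma adjusted p = 0.289). Nsdhl, a dehydrogenase of the sterol demethylation complex, read 14.32, 14.06, 13.93 and 13.48 in the CT livers and 14.91, 14.57, 14.98 and 14.59 in the F1 livers. The gap between groups was again clear, CT 4 being the lowest library, and the difference was 0.82 ± 0.20 (adjusted p = 0.224). Dhcr7, the reductase that makes cholesterol from its immediate precursor, read 12.49, 12.40, 11.84 and 12.09 in the CT livers and 12.70, 13.02, 12.74 and 12.75 in the F1 livers.

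The 4 F1 values of Dhcr7 lay above all CT values, 3 of them within 0.05 of each other, and the difference was 0.60 ± 0.18 (adjusted p = 0.329). Msmo1, the methylsterol oxidase that acts before Nsdhl, read 9.89, 10.32, 10.39 and 9.96 in the CT livers and 10.74, 10.28, 11.17 and 10.68 in the F1 livers. There the library F1 2 fell among the CT livers, and the difference was 0.58 ± 0.21 (adjusted p = 0.462). The remaining members of these steps differed less. Ebp, the sterol isomerase, differed by 0.22 ± 0.16, Hsd17b7, the ketoreductase of the demethylation complex, by 0.08 ± 0.20, Sc5d, the desaturase, by -0.18 ± 0.18, and Lbr, a sterol reductase that also anchors the nuclear lamina, by -0.30 ± 0.21; their limma adjusted p ran from 0.725 to 0.948. The library F1 4, which carries the pancreas genes, was low in Lbr at 8.69 against 9.48 to 9.53 in the other F1 livers. Without it 14 of the 18 enzymes had a higher mean, against 49.4% of all genes in that fit.

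**Figure D2:**
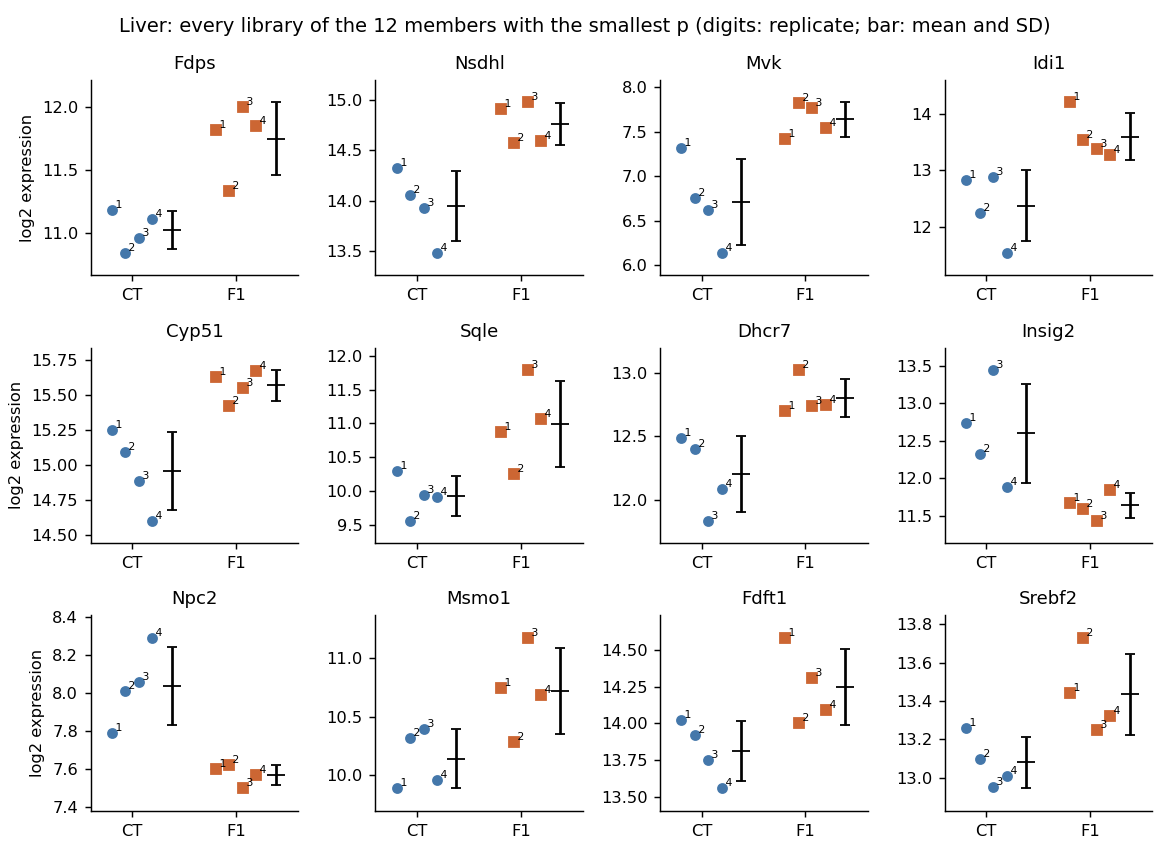
Log2 signal of 12 genes in each of the 8 liver libraries, CT and F1 side by side, with the group mean and SD drawn beside the points. The 4 F1 points sit above the 4 CT points in Mvk, Idi1, Fdps, Cyp51, Nsdhl and Dhcr7, and below them in Insig2 and Npc2.

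Library by library, the enzymes varied. Taken as the median deviation of the 18 enzymes from the CT mean, the CT livers stood at 0.25, 0.12, -0.08 and -0.21 and the F1 livers at 0.55, 0.20, 0.40 and 0.39. The liver F1 2 therefore lay below CT 1, and the groups overlap on this summary. Of the 18 enzymes, 11, 7, 9 and 11 in the F1 libraries 1 to 4 exceeded every CT library, where 23.3%, 22.2%, 21.3% and 20.9% of all genes did. CT 4 was the lowest of the 8 livers in 8 enzymes and in 1919 of 14760 genes of the array. Leaving out any single liver kept the median difference between 0.26 and 0.45 and the count of enzymes with a higher mean between 13 and 15.

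**Figure D3:**
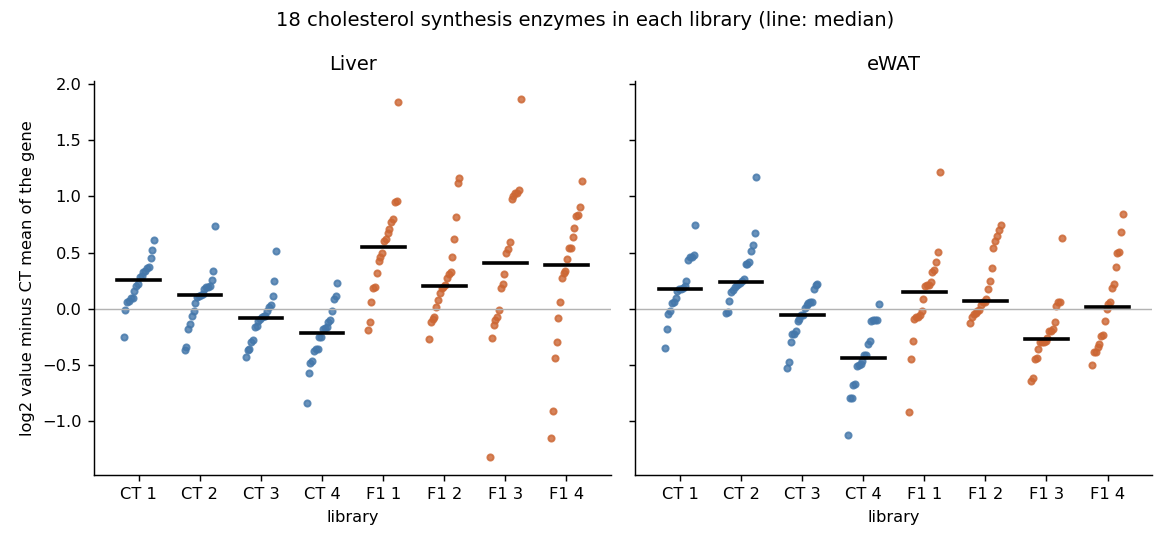
Deviation of each of the 18 synthesis enzymes from its tissue's CT mean, on the log2 scale, in each of the 16 libraries, with a line at the median of the enzymes. The medians run from -0.21 to 0.25 in CT livers and from 0.20 to 0.55 in F1 livers, while in eWAT both groups straddle 0 and CT 4 is lowest at -0.44.

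Genes outside the pathway also differed between the liver groups. All 13 acute phase genes had a higher mean in F1, the list median running from 8.20 to 9.39 in CT and from 11.73 to 13.71 in F1, and 11 of them had an unadjusted p under 0.05. Of 13 clock genes, 6 had an unadjusted p under 0.05, against 9.13% of all genes, and the clock output gene Dbp read 6.22, 8.44, 7.82 and 8.38 in CT and 8.83, 9.04, 12.39 and 11.87 in F1. The libraries F1 3 and F1 4 were the highest in Dbp and in the acute phase list, and F1 1 and F1 2 in the muscle markers. With F1 3 and F1 4 left out the enzyme median was 0.39, with 15 of 18 enzymes higher, and with F1 1 and F1 2 left out it was 0.35, with 13 of 18. These fits cannot tell the other genes apart from the sterol genes. Even F1 1 and F1 2 exceeded every CT liver in Dbp, and in the acute phase median at 11.73 and 11.76. The part of these other genes in the sterol differences was not tested, and no collection time is stated.

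The genes of SREBP control differed in both directions in liver. Insig2, the Insig form that does not depend on SREBP2 for its expression, read 12.74, 12.32, 13.44 and 11.89 in the CT livers and 11.67, 11.60, 11.44 and 11.85 in the F1 livers. Every F1 liver lay below every CT liver, though CT 4 was close to the highest F1 library and CT 3 stood far above. The difference was -0.96 ± 0.29, 1.94-fold lower (limma adjusted p = 0.341), and without CT 3 it was -0.68. Srebf2 itself read 13.26, 13.10, 12.95 and 13.01 in the CT livers and 13.44, 13.73, 13.25 and 13.32 in the F1 livers. Its groups touched at 13.26 in CT 1 and 13.25 in F1 3, and the difference was 0.35 ± 0.16 (adjusted p = 0.543). Scap read 14.62, 14.49, 14.25 and 14.61 in the CT livers and 15.01, 15.05, 14.93 and 14.51 in the F1 livers.

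Only the library F1 4 of the F1 livers fell among the CT values of Scap, and the difference was 0.38 ± 0.17 (adjusted p = 0.546). Insig1, the Insig form that SREBP2 induces, read 15.68, 16.45, 15.76 and 15.43 in the CT livers and 15.57, 15.78, 15.58 and 15.48 in the F1 livers. Its CT library 2 was the highest of all and the other 7 livers overlapped; the difference was -0.23 ± 0.22, with a 95% confidence interval from -0.71 to 0.25 (adjusted p = 0.81). Without CT 2, the liver high in Marco and some other macrophage genes, the Insig1 difference was -0.02, the enzyme median was 0.42 and 14 of 18 enzymes had a higher mean. Of 8 further genes listed for SREBP cleavage and sterol-sensed degradation, 4 were on the array, Mbtps1, Rnf139, Erlin1 and Erlin2. None had an unadjusted p under 0.05 in liver, the differences running from -0.05 in Erlin2, part of the complex that degrades sterol-sensing proteins, to 0.23 in Rnf139, a ubiquitin ligase.

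Sterol transport genes mostly lay close between the liver groups. Npc2, the lysosomal protein that hands cholesterol to Npc1, read 7.79, 8.01, 8.06 and 8.29 in the CT livers and 7.60, 7.62, 7.50 and 7.57 in the F1 livers. All F1 livers were lower than all CT livers and lay close to each other; the difference was -0.47 ± 0.15 (limma adjusted p = 0.374). Npc1, the membrane protein that moves that cholesterol out of the lysosome, differed by 0.12 ± 0.18, Stard4, a cytosolic sterol carrier, by 0.24 ± 0.20, Abcg1, an exporter of sterol to lipoproteins, by 0.21 ± 0.23, and Mylip, the ligase that marks lipoprotein receptors for degradation, by -0.07 ± 0.20. Their adjusted p ran from 0.791 to 0.955. Of 15 other genes of sterol uptake, transport and oxysterol handling above the limit for dim genes, 3 had an unadjusted p under 0.05, against 9.13% of all genes, and none passed; Ch25h was dim. Gramd1a, which carries sterol from the cell membrane, read 6.24, 6.03, 6.47 and 6.36 in CT and 5.69, 5.68, 5.41 and 5.73 in F1, a difference without overlap of -0.65 ± 0.16 (adjusted p = 0.208).

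Lrp1, a receptor for lipoprotein remnants, differed by 0.35 ± 0.13 (limma adjusted p = 0.483) and Gramd1c, a relative of Gramd1a, by -0.58 ± 0.25 (adjusted p = 0.537). Branches that leave the pathway at farnesyl diphosphate, toward ubiquinone, dolichol and protein prenylation, were measured too. Of their 10 measured genes 2 had a higher mean in F1 livers and 8 a lower one, with a median of -0.08 and none at an unadjusted p under 0.05. Coq2 of ubiquinone synthesis differed by -0.38 ± 0.20, Icmt, which methylates prenylated proteins, by -0.33 ± 0.19, and Dhdds of dolichol synthesis by 0.28 ± 0.27.

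RefSeq promoter windows are shown for Hmgcs1, the first enzyme of the mevalonate steps measured here, for Mvk, Idi1 and Nsdhl as enzymes whose liver groups did not overlap in the higher direction, and for Insig2 as the control gene that did so in the lower one. Each is the 250 bases before the annotated start on the strand of the gene, 5′ to 3′, in mouse build GRCm38.p6. The positions are chr13:119690101-119690350 on the plus strand, chr5:114444019-114444268 on the plus strand, chr13:8885356-8885605 on the plus strand, chrX:72918271-72918520 on the plus strand and chr1:121332590-121332839 on the minus strand. Capitals mark each CCAAT, the box bound by NF-Y, on either strand, and in Hmgcs1 also the match to TCACNCCAC, a form of the sterol regulatory element.
Hmgcs1: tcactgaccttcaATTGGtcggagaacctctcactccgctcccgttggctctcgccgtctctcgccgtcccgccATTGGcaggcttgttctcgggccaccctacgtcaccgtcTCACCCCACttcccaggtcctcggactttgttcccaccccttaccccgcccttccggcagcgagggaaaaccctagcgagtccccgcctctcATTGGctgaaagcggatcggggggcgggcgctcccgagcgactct
Mvk: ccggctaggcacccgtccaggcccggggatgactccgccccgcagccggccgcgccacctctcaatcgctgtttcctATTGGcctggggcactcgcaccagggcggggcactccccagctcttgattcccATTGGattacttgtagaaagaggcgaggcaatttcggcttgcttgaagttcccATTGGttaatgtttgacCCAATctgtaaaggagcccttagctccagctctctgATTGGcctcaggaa
Idi1: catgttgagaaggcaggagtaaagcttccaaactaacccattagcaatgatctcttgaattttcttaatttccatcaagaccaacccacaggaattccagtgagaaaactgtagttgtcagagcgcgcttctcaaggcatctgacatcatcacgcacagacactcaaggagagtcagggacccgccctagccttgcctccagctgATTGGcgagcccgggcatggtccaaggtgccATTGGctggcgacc
Nsdhl: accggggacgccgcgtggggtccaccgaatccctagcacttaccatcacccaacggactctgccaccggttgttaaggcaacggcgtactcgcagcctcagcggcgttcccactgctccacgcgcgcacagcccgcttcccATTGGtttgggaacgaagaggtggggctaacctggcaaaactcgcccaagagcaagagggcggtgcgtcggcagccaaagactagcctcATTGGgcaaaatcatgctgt
Insig2: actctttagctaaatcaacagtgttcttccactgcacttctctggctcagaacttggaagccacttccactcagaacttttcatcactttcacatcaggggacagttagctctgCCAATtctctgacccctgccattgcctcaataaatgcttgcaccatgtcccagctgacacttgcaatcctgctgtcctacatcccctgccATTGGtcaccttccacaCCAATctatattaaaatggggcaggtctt

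The window of Hmgcs1 held 3 matches to CCAAT, that of Mvk 5, those of Idi1 and Nsdhl 2 each, and that of Insig2 3, in 1 of 3 windows of the gene. The Insig2 window was shown because it held the most CCAAT, and the other windows of that gene held 0. A window was found for 21 of the 27 genes. A CCAAT was in at least 1 window of 20 of these 21 and of all 15 enzymes with one, against 37.5% of all genes with a window. By window the share was 74.1% of 27 against 33.8% of 32851 mouse windows of the same length. The Sp1 box GGGCGG was present in 77.8% against 32.7% and the E-box CACGTG in 18.5% against 6.02%, both strands being read. TCACNCCAC was in 1 of the 27 windows, that of Hmgcs1 (3.7%), and in 1.05% of all, and 1 window is too few to compare. The letters of these motifs were searched apart, so matches of different motifs may overlap, and a match describes the sequence only. Lss, Mvd and Ggps1, whose liver groups overlapped, had CCAAT as well. Of the other enzymes whose F1 livers all lay above the CT livers, Fdps had no window, and Cyp51 and Dhcr7 are not shown. The Cyp51 window held 1 CCAAT, and 1 window of Dhcr7 held 2 while its other windows held 0.

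In eWAT none of the same genes separated the offspring groups. None of the 27 passed limma's adjusted threshold, where 0% of the 14766 genes tested did, and none had an unadjusted p under 0.05, against 9.99% of all genes; one fit over 16 libraries passed 29 genes of the array, none of them among the 27. In none were the groups separate, against 5.92% of all genes. Higher and lower means were evenly split over the enzymes, 9 and 9, against 49.5% higher over all genes, and the enzyme median was 0.01. The smallest p belonged to Pmvk, which read 8.56, 8.32, 8.16 and 7.46 in CT eWAT and 9.34, 8.77, 8.19 and 8.63 in F1 eWAT. The library F1 1 was the highest and CT 4 the lowest, with the others overlapping; the difference was 0.61 ± 0.30, with a 95% interval from -0.06 to 1.28 (adjusted p = 0.53). Without F1 1, the library with the seminal vesicle genes, the Pmvk difference was 0.41, the enzyme median was -0.03 and 8 of 18 enzymes had a higher mean.

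Other enzymes of eWAT differed in both directions. Mvk read 8.32, 7.84, 7.35 and 6.78 in CT eWAT and 7.81, 8.11, 8.20 and 7.63 in F1 eWAT, a difference of 0.36 ± 0.31 (limma adjusted p = 0.713). The 4 F1 libraries lay within the wide range of the CT ones, of which CT 4 was lowest. Fdps read 6.18, 6.52, 6.06 and 5.71 in CT eWAT and 6.53, 6.72, 5.86 and 6.80 in F1 eWAT, a difference of 0.36 ± 0.25 (adjusted p = 0.654). Its F1 library 3 fell among the lower CT values and the other F1 libraries were above the top CT value. Sc5d read 15.58, 15.79, 15.43 and 14.70 in CT eWAT and 14.93, 15.30, 14.73 and 15.06 in F1 eWAT, a difference of -0.37 ± 0.25 (adjusted p = 0.643). Here the CT libraries 1 to 3 exceeded all F1 libraries and CT 4 lay below them all. Fdft1 read 11.71, 11.86, 11.56 and 11.33 in CT eWAT and 11.54, 11.49, 11.32 and 11.23 in F1 eWAT, a difference of -0.22 ± 0.17 (adjusted p = 0.681). Hsd17b7 read 10.03, 10.08, 9.56 and 9.76 in CT eWAT and 9.80, 9.85, 9.41 and 9.62 in F1 eWAT, a difference of -0.19 ± 0.18 (adjusted p = 0.741). In both of these the highest libraries were CT 1 and CT 2, and the groups overlapped.

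Of the control genes in eWAT, Srebf2 read 13.55, 13.30, 13.68 and 13.40 in CT eWAT and 13.23, 13.46, 13.36 and 12.95 in F1 eWAT, a difference of -0.23 ± 0.17 (adjusted p = 0.671). Its lowest value was that of F1 4 and its highest that of CT 3. Insig1 read 14.64, 15.69, 14.86 and 13.56 in CT eWAT and 14.57, 14.27, 13.77 and 14.07 in F1 eWAT, a difference of -0.52 ± 0.40 (limma adjusted p = 0.684). CT 2 was the highest and CT 4 the lowest, so that the CT libraries enclosed all F1 libraries. The other 19 genes had differences between -0.24 in Npc2 and 0.28 in Idi1.

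The library CT 4 was the lowest of the 8 eWAT libraries in 10 of the 18 enzymes and in 16.6% of all genes, and its median deviation over them was -0.44. Hepatocyte marker levels differed between the eWAT libraries. Stard4, far more abundant in liver, read 8.41, 8.16, 8.86 and 8.23 in CT eWAT and 8.07, 9.06, 8.21 and 9.06 in F1 eWAT. Its highest values were in F1 2 and F1 4, whose hepatocyte medians were 14.26 and 15.76, followed by CT 3 with a median of 14.30. CT 4, also with a median of 14.26, lay below CT 1, whose median was 8.70. Hsd17b7, likewise more abundant in liver, went the other way. Its highest eWAT values, 10.03 and 10.08, were in CT 1 and CT 2, whose hepatocyte medians were the lowest at 8.70 and 7.41. The part of hepatocyte RNA in these values was not tested. With the 4 eWAT libraries highest in hepatocyte markers left out, 2 per group remained, the enzyme median became -0.24, and 2 of 18 enzymes had a higher mean, against 49.3% of all genes in that fit. There 4 of the 27 genes had an unadjusted p under 0.05, against 9.35% of all genes, and none passed the adjusted threshold. 

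Genes of other cell types and processes were compared between the eWAT groups as well, and none passed limma's adjusted threshold. All 10 hepatocyte markers had a higher mean in F1, none at an unadjusted p under 0.05. Macrophage markers had a lower mean in F1 in 9 of 10, 3 of them at that p, with list medians of 11.05 to 11.83 against 11.73 to 12.65 in CT. Of 13 acute phase genes 12 had a higher mean and 5 had an unadjusted p under 0.05, and of 13 clock genes 4 did, all higher. Of 8 skeletal muscle markers above the limit for dim genes 7 had a lower mean, 3 of them at that p; the share of all genes was 9.99%. Their part in the sterol values of eWAT was not tested.

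Of the related lists in eWAT, none of the 4 genes of SREBP cleavage and degradation and none of the 10 genes branching from farnesyl diphosphate had an unadjusted p under 0.05. Erlin1, a partner of Erlin2, differed by 0.36 ± 0.19, and Rce1, a protease that trims prenylated proteins, by 0.55 ± 0.33. Among 15 genes of sterol uptake and oxysterol handling 2 did, against 9.99% of all genes. Nr1h3, the liver X receptor alpha that senses oxysterols, read 12.11, 12.20, 12.13 and 11.79 in CT and 12.52, 12.35, 12.66 and 12.63 in F1. The F1 values lay above all CT values, a difference of 0.48 ± 0.16 (limma adjusted p = 0.402). Lipa, the lysosomal acid lipase that frees cholesterol from its esters, read 13.14, 13.63, 13.53 and 14.83 in CT and 12.43, 12.66, 12.41 and 13.36 in F1, a difference of -1.07 ± 0.37 (adjusted p = 0.412). CT 4 was its highest library and the groups overlapped.

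The difference between the liver and eWAT effects was tested directly, as an interaction over all 16 libraries. None of the 27 genes passed limma's adjusted threshold, against 0.0795% of 15090 genes, and 4 had an unadjusted p under 0.05, against 9.79% of all genes and 4.90% in the higher direction. All 4 had the larger F1 minus CT difference in liver. They were Sqle at 1.23 ± 0.37 (adjusted p = 0.306), Fdft1 at 0.65 ± 0.25 (adjusted p = 0.411), Nsdhl at 0.93 ± 0.36 (adjusted p = 0.43) and Srebf2 at 0.59 ± 0.23 (adjusted p = 0.432). Insig2 followed with -0.84 ± 0.41 and Idi1 with 0.95 ± 0.47, both with an interval that included 0. Pmvk had the opposite sign to most enzymes, -1.06 ± 0.54. Over the 18 enzymes the liver difference was the larger in 15, against 49.8% of all genes, with a median of 0.37. Without the 4 eWAT libraries highest in hepatocyte markers 10 of the 27 genes had an unadjusted p under 0.05, against 11.6% of all genes in that fit. None of the 27 passed there, while 167 genes of the array did.

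Between the tissues of CT mice the sterol genes differed widely. All 27 passed limma's adjusted threshold, 20 higher and 7 lower in liver, where 74.4% of 15112 genes passed, 18.4% higher and 56.0% lower. Fdps was higher in liver by 4.90 ± 0.20 (adjusted p = 4.04e-09), with 11.02 ± 0.15 (SD, n = 4) in liver and 6.12 ± 0.33 in eWAT. Stard4 was higher by 4.49 ± 0.20 (adjusted p = 9.09e-09), Hsd17b7 by 3.78 ± 0.20, Insig2 by 3.66 ± 0.32, Ebp by 3.54 ± 0.21, Cyp51 by 3.30 ± 0.19, Dhcr7 by 3.25 ± 0.21 and Idi1 by 3.05 ± 0.34. Of the 18 enzymes 15 were higher in liver, with a median difference of 2.16. The other enzymes higher in liver were Sc5d at 2.86 ± 0.25, Sqle at 2.60 ± 0.20, Fdft1 at 2.20 ± 0.18, Msmo1 at 2.12 ± 0.43, Mvd at 1.44 ± 0.33, Hmgcs1 at 1.14 ± 0.22, Lss at 1.14 ± 0.24, Nsdhl at 1.09 ± 0.29 and Pmvk at 0.69 ± 0.28. The exceptions were Ggps1 at -2.31 ± 0.17, Lbr at -1.64 ± 0.15 and Mvk at -0.86 ± 0.34.

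Npc2, Abcg1 and Mylip were lower in liver than in eWAT. Npc2 differed by -5.04 ± 0.24, 33.0-fold lower in liver (limma adjusted p = 1.38e-08), with 8.04 ± 0.21 in liver and 13.08 ± 0.47 in eWAT, and Abcg1 by -4.21 ± 0.32 (adjusted p = 5.06e-07). Mylip differed by -1.94 ± 0.21, while Npc1, the partner of Npc2, was higher in liver by 1.82 ± 0.19. Scap was higher in liver by 2.33 ± 0.23, Insig1 by 1.14 ± 0.40, and Srebf2 differed by -0.40 ± 0.16. The 2 tissues appear to have been normalized separately, since the median difference over all genes was -0.79 as deposited and 0.01 after a joint quantile normalization. On that scale Mvk stood at 0.52 (adjusted p = 0.211) and Srebf2 at 0.01 (adjusted p = 0.971), so the direction of these genes depends on the scaling; the other 25 genes kept theirs. Mvk, Srebf2, Pmvk and Insig1 also lost their call in at least 1 fit that left out a library. The medians of the hepatocyte markers of CT eWAT ran from 7.41 to 14.30, those of the adipocyte markers in liver from 5.50 to 6.74, and their part was not tested. Relative to the median of all genes, Fdps was 5.70 higher and Npc2 differed by -4.25.

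**Figure D4:**
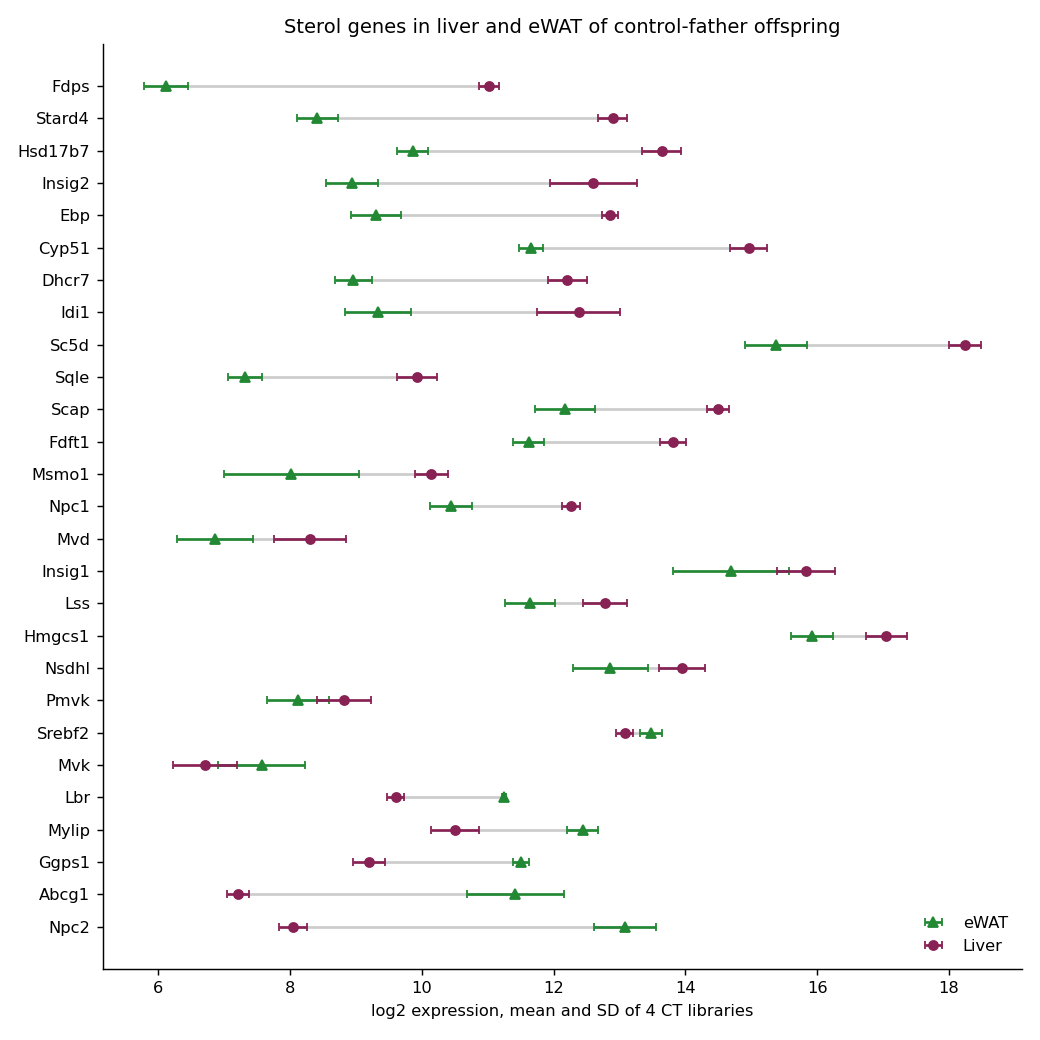
Mean log2 signal with SD of the 27 genes in CT liver and CT eWAT (4 libraries each), as deposited and ordered by the difference between the tissues. Fdps and Stard4 lie far higher in liver and Npc2 and Abcg1 far higher in eWAT; the tissues appear to be normalized separately, and Mvk and Srebf2 change direction after joint quantile normalization.

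Spread within groups set how small a difference could be read. The median SD over the 27 genes was 0.28 in CT livers and 0.25 in F1 livers, near the 0.24 and 0.25 of all genes, and 0.38 in CT and 0.27 in F1 eWAT against 0.30 and 0.29. The largest SD was 0.66 in CT livers for Insig2, 0.91 in F1 livers for Pmvk, 1.02 in CT eWAT for Msmo1 and 0.98 in F1 eWAT for Abcg1. The number of libraries, 4 per group, limits the precision of each value.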

How the data were processed

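Total RNA (150 ng) from 8 liver and 8 eWAT samples was labelled and hybridised to Affymetrix arrays, per the labels' protocols. The deposited values are log2 signals. The submitters' processing notes name RMA and Transcriptome Analysis Console 4.0 as the authors' tools. The values run from 1.47 to 19.93. Of 22206 probe sets 19572 had 1 symbol and 2634 none; 0 had several. RefSeq names (GRCm38.p6) changed 0 symbols. For the 55 symbols with several probe sets the brightest was kept, and genes with a mean below the 25th percentile of the fitted libraries were left out as dim.

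Groups were compared by moderated 2-sided tests (limma 3.58.1, R 4.3.3), each tissue fitted alone, with Benjamini-Hochberg adjustment over all kept genes and a threshold of 0.05. The interaction used all 16 libraries. The scripts were tested on simulated data. Alternatives were other dim filters, quantile normalization, trended and robust eBayes, array weights, a replicate block, averaged probe sets, one fit over 16 libraries and each library left out; 3 sets of left-out libraries were added after seeing the data. The members and lists were chosen with earlier results of these data known. All members are named, with every library's value for the 12 smallest p in liver, the 8 in eWAT and the genes of SREBP control in liver; of each related list up to 3 genes per tissue are named, and marker, clock and acute phase lists are given as counts and ranges. Promoters came from a RefSeq table. Depth does not apply to arrays; 4 libraries per group limit the precision.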

Additional observations from a re-analysis of the deposited data

Results flagged for a closer look

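Of 108 sets of 4 libraries (each of the 27 genes in each group), 3 held a library whose gap to the nearest other exceeded the 95% critical value of Dixon's test relative to the range of the group; chance alone flags about 1 in 20 such sets. Lbr, the sterol reductase of the nuclear envelope, was 8.69 in the liver F1 4 against 9.48 to 9.53 in the other F1 livers. Dhcr7, the last reductase of the pathway, was 13.02 in the liver F1 2 against 12.70 to 12.75. Mylip, the ligase acting on lipoprotein receptors, was 11.94 in eWAT F1 3 against 12.45 to 12.52.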

How the results depend on the processing

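No sterol gene passed in either offspring comparison or in the interaction under any setting run; the lowest adjusted p in liver was 0.0617 for Nsdhl, and in the interaction 0.0779 for Msmo1. Sign changes arose in 110 of 2078 alternative values of single genes, 77 of them on leaving out 1 library, and in 0 of those for the 13 liver genes at an unadjusted p under 0.05. These 13 were picked by their p in the same libraries, so a change of sign among them was unlikely from the start. Genes passing over the array numbered 23 in liver, 74 with trended and robust eBayes, 48 in one fit over 16 libraries, 6 with the replicate block, 9 without both muscle-high F1 livers and 7 to 24 on leaving out 1 library; 0 in eWAT, 29 in one fit over 16 libraries and 0 to 1 on leaving out 1; and 12 in the interaction, 35 with trended and robust eBayes, 167 without the 4 hepatocyte-high eWAT libraries and 7 to 27 on leaving out 1. The liver count was 7 without CT 2 and 7 without F1 3; the interaction count was 7 without eWAT CT 3 and 27 without eWAT F1 3. On leaving out 1 library, 9 to 12 of the 27 genes had an unadjusted p under 0.05 in liver, against 7.87% to 9.15% of all genes. In eWAT 0 to 2 did (1 without CT 1, 2 without CT 4 and 2 without F1 3), against 7.89% to 10.5%. In the interaction 3 to 7 did (7 without eWAT CT 4), against 8.68% to 10.4%. The eWAT enzymes ran from 6 to 11 higher, with a median of -0.09 to 0.10. In eWAT 1 of the 27 genes had an unadjusted p under 0.05 with the replicate block, against 9.31% of all genes. Without the hepatocyte-high libraries 4 did, against 9.35%, and the enzyme median was -0.24 with 2 enzymes higher. In the interaction 10 did there, against 11.6%. Same-numbered samples were not treated as pairs: their deviations from the group means correlated at -0.05 to 0.07 between liver CT and F1 and at -0.40 to 0.32 in eWAT, with 1 of 4 matching its own number best in each. Between liver and eWAT they correlated at 0.01 to 0.06 in CT (2 of 4 matching best) and at 0.04 to 0.05 in F1 (4 of 4), a weak hint of a shared source that comes from the data and not from the labels. With the block, 11 liver sterol genes had an unadjusted p under 0.05, against 8.57% of all genes, and the enzyme median was 0.37.

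Without both Dbp-high F1 livers the liver difference was 0.33 in Pmvk, -0.15 in Hsd17b7, -0.02 in Stard4 and -0.11 in Npc1; without both muscle-high F1 livers it was -0.04 in Ggps1, -0.04 in Lss and -0.10 in Abcg1. With array weights Lss was -0.03 in eWAT. Without the hepatocyte-high eWAT libraries the eWAT difference was -0.08 in Mvk, -0.85 in Mvd, -0.21 in Idi1, -0.15 in Fdps, -0.19 in Lss, -0.27 in Ebp, -0.08 in Dhcr7, 0.10 in Insig2 and -0.14 in Stard4. The interaction was -0.01 in Ebp with quantile normalization and -0.02 in Mylip with array weights; 0.03 in Mvd, 0.02 in Lbr, -0.20 in Stard4 and -0.17 in Npc1 without the Dbp-high livers; -0.02 in Ggps1, -0.09 in Lss, -0.11 in Ebp and -0.02 in Mylip without the muscle-high livers; and 0.93 in Mvd, -0.10 in Scap, -0.20 in Npc1 and 0.23 in Npc2 without the hepatocyte-high libraries. In the tissue comparison Mvk was 0.52 and Srebf2 0.01 with quantile normalization, while Insig1 (adjusted p = 0.0617, trended and robust eBayes), Pmvk (0.0589 with array weights, 0.109 in one fit over 16 libraries) and Srebf2 (0.0782 with the replicate block) no longer passed limma's threshold. The cause of each was not tested.

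On leaving out 1 library the liver difference changed sign in Ggps1 -0.11 to 0.11, Mylip -0.20 to 0.05, Mvd -0.08 to 0.33, Lss -0.08 to 0.18, Hsd17b7 -0.04 to 0.17; the eWAT difference in Msmo1 -0.52 to 0.25, Dhcr7 -0.09 to 0.25, Nsdhl -0.38 to 0.07, Scap -0.04 to 0.33, Npc1 -0.05 to 0.19, Mvd -0.11 to 0.28, Ggps1 -0.05 to 0.04, Lss -0.09 to 0.20, Insig2 -0.29 to 0.02, Mylip -0.17 to 0.04, Abcg1 -0.62 to 0.17, Hmgcs1 -0.23 to 0.20, Cyp51 -0.06 to 0.27; and the interaction in Mvd -0.20 to 0.23, Mylip -0.11 to 0.14, Ggps1 -0.09 to 0.13, Lss -0.14 to 0.15, Stard4 -0.13 to 0.20, Ebp -0.14 to 0.19, Npc1 -0.07 to 0.18, Lbr -0.26 to 0.02, Insig1 -0.04 to 0.67. In the tissue comparison Pmvk 0.47 to 0.83, Mvk -1.13 to -0.61, Srebf2 -0.46 to -0.34, Insig1 0.77 to 1.48 lost their call in at least 1 such fit.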
